A study of Homo sapiens with 2 samples.

Results

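The p38 and JNK kinase cascade was described here through 10 of the 58884 genes in the count table of SAS cells with and without KDM4C knockdown. The genes were chosen by their place in the cascade, with the counts of both libraries already known, so their ratios are given as a description and not as a test. They were MAP3K5 at the upper tier, MAP2K3, MAP2K6, MAP2K4 and MAP2K7 at the middle tier, and MAPK11, MAPK13, MAPK14, MAPK8 and MAPK9 at the lower tier. MAPK12 and MAPK10, the remaining isoforms of the p38 and JNK kinases, were added for comparison within each family. All 10 genes reached the minimum of 20 counts over both libraries that 18078 genes passed, but MAP2K6 reached it through the LKO library alone.

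SAS is a human tongue squamous carcinoma line. The LKO cells had been infected with control pLKO.1 lentivirus and the shKDM4C cells with the same vector carrying a hairpin against KDM4C, a histone lysine demethylase. Both were selected with puromycin, and messenger RNA of 1 library per condition was sequenced to ask how KDM4C affects metastasis. The methods do not say which of 2 hairpins the sequenced cells carried. Since each condition had a single library, no difference has a replicate check and no test was made. Loss of KDM4C, other effects of the hairpin and differences between cultures cannot be told apart here.

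The counts summed to 57626616 in LKO and 50627096 in shKDM4C. KDM4C itself had 1047 counts in LKO and 242 in shKDM4C, or 27.8% of the LKO level after scaling (log2 ratio -1.85, 95% counting interval -2.06 to -1.65). All 8 markers of squamous epithelium were present in both libraries, from 362 counts of the keratin gene KRT6A to 24147 of KRT5, both in LKO, and summed to 1430 CPM (counts per 1000000, after scaling) in LKO and 1150 in shKDM4C. By the call rule given further on, CDH1 and TP63 of these 8 were lower in shKDM4C and KRT6A higher. That rule called 15.7% of all tested genes lower and 13.0% higher. Of the leukocyte markers, PTPRC had 14 counts in LKO and 12 in shKDM4C, ITGAM had 9 and 8, and CD3E had 0 in both. Of 5 fibroblast markers 2 were tested, with COL1A1 called higher at 97 and 123 counts and PDGFRB not called at 168 and 151. Of 3 endothelial markers 2 were tested and both were called higher, PECAM1 with 22 and 57 counts and CDH5 with 16 and 67, while KDR had 0 and 2. The summed level of the tested endothelial markers was 0.642 CPM in LKO and 2.52 CPM in shKDM4C. The part of these cells or transcripts in the results was not tested.

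Mitogen-activated protein kinases work in tiers. A MAP3K such as MAP3K5 (ASK1), which responds to oxidative stress, phosphorylates a MAP2K, and the MAP2K phosphorylates a threonine and a tyrosine in the activation loop of the MAPK. MAP2K3 and MAP2K6 act on the p38 kinases and MAP2K7 on the JNK kinases, while MAP2K4 can act on both, and the pathway is known in epithelial cells for its response to cytokines and stress. These kinases are switched by phosphorylation, which messenger RNA levels do not measure.

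The study lists 2 hairpins against KDM4C, and both target sequences are shown because a few cascade genes share letters with them. Capitals mark target bases 10 to 20, counted from 1 at the 5′ end, which pair with positions 2 to 12 of the guide strand.
shKDM4C#1: atacttggaTTACGAAGATTt
shKDM4C#2: gctatgagaAGCCCGAGAAAt
The first target lies in coding exon 4 of KDM4C at chr9:6814646-6814666 and the second in coding exon 11 at chr9:6986467-6986487, on the plus strand of GRCh38. Exon numbers refer to the 22 exons of Ensembl's canonical KDM4C transcript.

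The 3′ UTRs of the canonical transcripts were searched for the 5 overlapping words of 7 bases within each capital stretch. Words of shKDM4C#1 were found in MAP2K6, MAP3K5, MAPK8 and MAPK10, against 17.5% of 13209 genes searched. A word of shKDM4C#2 was found in MAP2K7, against 10.5% of genes. The other 7 of the 12 kinase genes held none. The sites are printed with the matching letters in capitals.
MAP2K6, chr17:69545129-69545151: tttcaaatGAAGATTtccacacc
MAP2K6, chr17:69550099-69550121: agctataaGAAGATTcagagagt
MAP3K5, chr6:136557491-136557513: atgttcagGAAGATTttaatcta
MAPK8, chr10:48438908-48438932: taaaaattTTACGAAGAaataaatt
MAPK10, chr4:86011461-86011483: cttttcttGAAGATTacttatgg
MAP2K7, chr19:7914126-7914148: cagcacagGCCCGAGgccgggct
MAP3K5 and MAPK10 lie on the minus strand and the others on the plus strand. The 3′ UTR of MAP2K6 is also the longest of the 12, with 12112 bases, against 500 in MAPK12. The shares of genes searched take no account of 3′ UTR length, and a longer 3′ UTR has more places for a word. The match in MAPK8 was the longest, with 9 letters. It leaves out the last capitals of the target stretch, which pair with the guide from position 2 on. The word in MAP2K7 leaves out the last capitals of its stretch as well, while GAAGATT reaches the end of the stretch. A match is a description of letters and no measure of hairpin binding.

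Across the cascade, 1 of the 10 genes was lower in the shKDM4C library and 1 was higher, where a call needed a ratio of at least 1.5-fold and a 95% counting interval on 1 side of no change. Both were MAP2Ks of the p38 branch, and they went in opposite directions. Of all 18078 genes, 15.7% were called lower and 13.0% higher by the same rule, and since the genes were chosen with these ratios known, nothing is read from the comparison. The median log2 ratio of shKDM4C over LKO was -0.148 over the 10 genes and -0.0094 over all genes. Without the 1.5-fold minimum, the interval lay below no change for 5 of the 10 genes and above it for 3, against 33.5% and 32.1% of all genes. In cells measured in bulk, fewer cells with a transcript and less of it per cell cannot be told apart.

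**Figure D1:**
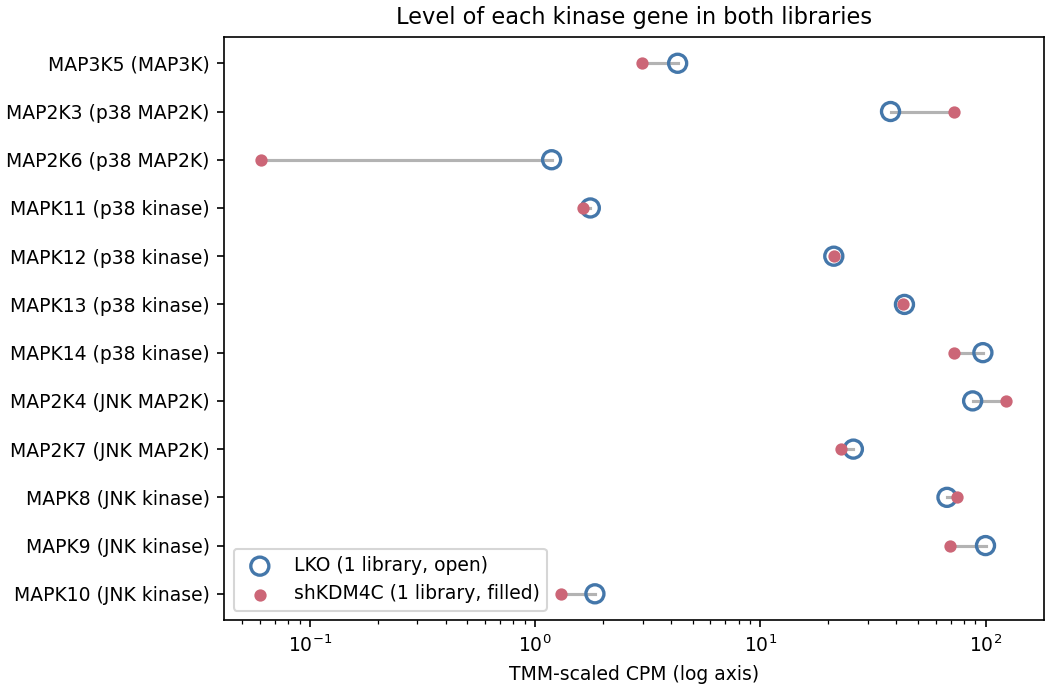
Level of each kinase gene as TMM-scaled CPM on a log axis, with 1 open circle for the LKO library and 1 filled circle for the shKDM4C library. MAP2K6 lies at 1.18 CPM in LKO and 0.0609 CPM in shKDM4C, MAP2K3 at 37.8 and 72.6 CPM, and the circles of MAPK12 and MAPK13 overlap.

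MAP2K3 encodes a kinase that activates p38, and it had 2240 counts in LKO and 3579 in shKDM4C. Scaled by TMM, a factor that corrects library size for composition, this was 37.8 CPM in LKO and 72.6 CPM in shKDM4C. The level in the shKDM4C library was thus 1.92-fold that of LKO, with a log2 ratio of 0.94 (95% counting interval 0.86 to 1.02). It was the 1 cascade gene called higher. The gene lies on the plus strand of chromosome 17 of GRCh38 at 21284672 to 21315232, and no annotated gene overlaps it.

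MAP2K6, its close relative, was near the limit of detection in the shKDM4C library. It had 70 counts in LKO and 3 in shKDM4C, or 1.18 CPM against 0.0609 CPM. Its level in the knockdown library was 5.15% of that in LKO (interval 1.04% to 15.7%), a ratio 19.4-fold lower (interval 6.38 to 96.5). With a prior count of 0.5 the log2 ratio was -4.07, and with a prior count of 5 it was -2.96, since the fitted value of a gene with 3 counts depends on the prior. MAP2K6 lies on chromosome 17 as well, at 69414697 to 69553865 on the plus strand. It was a minor transcript already in LKO. The 2 annotated genes that overlap it, a long noncoding RNA on the opposite strand and a locus of the class TEC on the same strand, had 0 counts in both libraries. Its 3′ UTR holds the 2 sites of shKDM4C#1 printed above, whose part in the ratio was not tested.

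Measured within each library, the difference between MAP2K3 and MAP2K6 does not depend on library size. The ratio of MAP2K3 to MAP2K6 counts was 37.3-fold higher in shKDM4C than in LKO (exact 95% interval of the odds ratio 12.2 to 185). Per kilobase of merged exons, MAP2K6 made up 0.703% of both genes together in LKO (interval 0.547% to 0.890%) and 0.0190% in shKDM4C (interval 0.00392% to 0.0555%). MAP2K3 thus supplied nearly all transcripts of this pair in both libraries, and the summed level of both was 10.1 CPM per kilobase in LKO and 19.2 in shKDM4C.

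The 250 bases before the start sites of these genes are shown because they were the called members, and because the study concerns GATA1, a transcription factor named for the letters it binds, beside KDM4C. The windows come from RefSeq (GRCh38.p14, plus strand) and end at the base before the start of the canonical transcript. Promoters were found for all 12 kinase genes. Capitals mark GATA words and AP-1 words, searched on both strands. The GATA words were AGATAA or TGATAA, or the same with G as the last letter, and AGATAA reads TTATCT on the other strand. The AP-1 word was TGACTCA, which reads TGAGTCA there.
MAP2K3, chr17:21284461-21284710: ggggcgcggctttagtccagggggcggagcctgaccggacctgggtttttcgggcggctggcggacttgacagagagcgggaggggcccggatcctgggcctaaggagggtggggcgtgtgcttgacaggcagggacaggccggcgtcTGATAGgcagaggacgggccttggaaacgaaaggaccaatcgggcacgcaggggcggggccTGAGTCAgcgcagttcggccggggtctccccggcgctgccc
MAP2K6, chr17:69414447-69414696: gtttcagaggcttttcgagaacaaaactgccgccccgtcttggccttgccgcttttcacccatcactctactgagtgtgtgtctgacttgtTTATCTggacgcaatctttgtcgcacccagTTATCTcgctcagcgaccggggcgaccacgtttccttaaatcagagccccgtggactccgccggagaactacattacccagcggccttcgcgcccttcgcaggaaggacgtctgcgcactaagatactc
The window of MAP2K3 held 1 GATA word, 102 bases before the start, and 1 AP-1 word, 41 bases before it. The window of MAP2K6 held 2 GATA words, 159 and 129 bases before the start, and no AP-1 word. A GATA word was found in 22.3% of the 35116 RefSeq promoter windows of this length and an AP-1 word in 4.2%. The GC content was 70.4% for MAP2K3 and 55.6% for MAP2K6, against 57.2% over all windows. Of the other kinase genes, none held a GATA or AP-1 word in the window at its canonical start. MAPK10 held the CRE word TGACGTCA, which 1.65% of windows hold, 79 bases before its own. In windows at other RefSeq starts, MAPK9 held a GATA word, and MAPK10 held a GATA word and an AP-1 word. The windows at the other starts of MAP2K3 and MAP2K6 held no such word. The shares of all windows include windows at such other starts. No binding data were used here, and a word in a window is not a binding site.

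The genes beside MAP2K6 and MAP2K3 were looked up after these values were seen, as the nearest coding genes with at least 20 counts. ABCA5, a transporter gene 87.5 kb before MAP2K6, had 1157 counts in LKO and 1357 in shKDM4C, a log2 ratio of 0.49 (interval 0.38 to 0.61). KCNJ2, a potassium channel gene 615 kb after it, had 11 and 21 counts, a log2 ratio of 1.17 (interval 0.079 to 2.40). The others looked up there were ABCA10, 170 kb before MAP2K6, and SOX9, as far as 2567 kb after it. They had log2 ratios of 0.41 and 0.36, so that all 4 of these genes lay above 0 and MAP2K6 below it. Beside MAP2K3, KCNJ12, another potassium channel gene 61.1 kb after it, had 54 counts in LKO and 150 in shKDM4C, a log2 ratio of 1.73 (interval 1.28 to 2.21). WSB1, as far as 5979 kb after MAP2K3, had -0.055 (interval -0.098 to -0.012). On the other side of MAP2K3, NATD1 had -0.37 (interval -0.79 to 0.041) and TMEM11 0.34 (interval 0.26 to 0.43). The genes looked up beside MAP2K3 thus lay on both sides of 0.

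**Figure D2:**
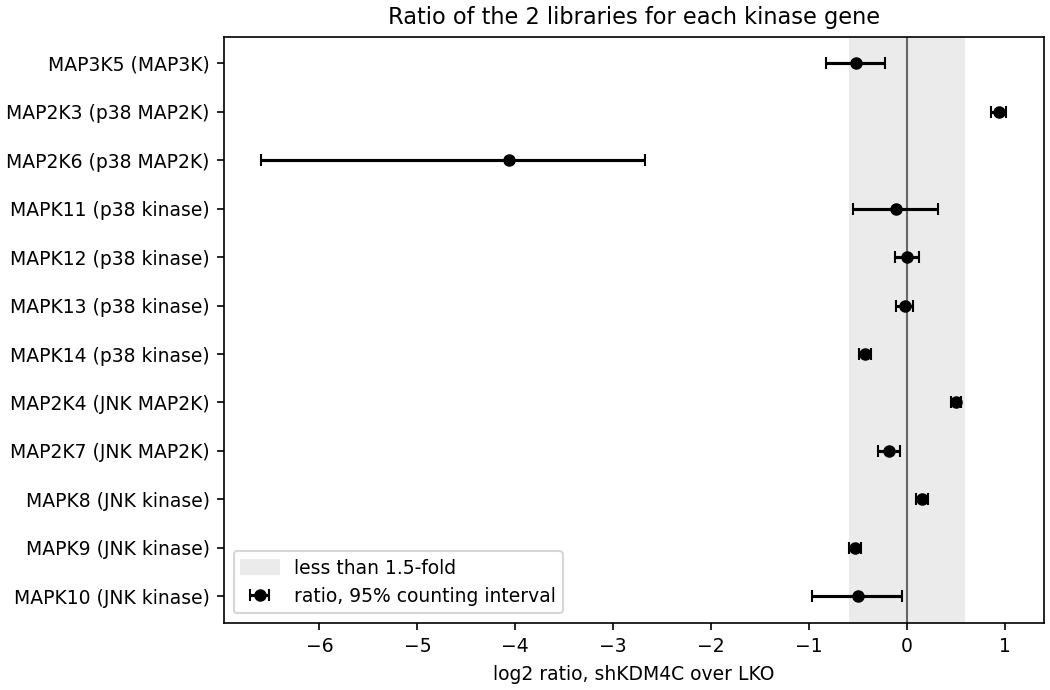
The log2 ratio of shKDM4C over LKO for each kinase gene, with bars for the 95% counting interval of 1 library against 1 library. MAP2K6 at -4.07 and MAP2K3 at 0.94 lie outside the grey band of less than 1.5-fold, and the other 10 genes lie within it.

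The kinases that feed the JNK branch differed less. MAP2K4, which activates JNK and can activate p38, had 5187 counts in LKO and 6107 in shKDM4C, or 87.6 and 124 CPM. Its log2 ratio of 0.50 (interval 0.45 to 0.55) was below 1.5-fold. MAP2K7, specific for JNK, had 1532 and 1123 counts, or 25.9 and 22.8 CPM, and a log2 ratio of -0.18 (interval -0.30 to -0.072). The ratio of MAP2K4 to MAP2K7 counts was 1.61-fold higher in shKDM4C (exact interval 1.47 to 1.75). MAP2K4 made up 75.3% of this pair per kilobase in LKO (interval 74.2% to 76.4%) and 83.1% in shKDM4C (interval 82.1% to 83.9%). As in the p38 branch, the more abundant MAP2K had the higher ratio. Among the p38 and JNK kinases, those with the largest shares in LKO had the lowest log2 ratios of their families. These were MAPK14 at -0.43 and MAPK9 at -0.53. The rarest isoforms did not clearly differ from them. MAPK11 minus MAPK14 was 0.31 (interval -0.13 to 0.75), and MAPK9 minus MAPK10 was -0.022 (interval -0.48 to 0.45). A processed pseudogene on the same strand as MAP2K4, ENSG00000263648, had 1 count in LKO and 17 in shKDM4C, a small number beside those of MAP2K4.

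MAP3K5 was a minor transcript at the upper tier, with 254 counts in LKO and 147 in shKDM4C, or 4.29 and 2.98 CPM. Its log2 ratio was -0.52 (interval -0.83 to -0.23), short of the 1.5-fold minimum. It passed that minimum with total counts in place of TMM, at -0.60. An antisense transcript, MAP3K5-AS1, had 1 count in LKO and 0 in shKDM4C. The 3′ UTR of MAP3K5 holds 1 of the sites printed above, and its part in the ratio was not tested. The genes with such sites had log2 ratios on both sides of 0. MAPK8, with the longest match, was at 0.15, MAP2K7 at -0.18, MAPK10 at -0.50 and MAP2K6 at -4.07.

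Among the p38 kinases, MAPK14 (p38 alpha), the form present in most cell types, had 5760 counts in LKO and 3571 in shKDM4C, or 97.3 and 72.4 CPM. Its log2 ratio was -0.43 (interval -0.49 to -0.37), which is 74.4% of the LKO level. MAPK13 (p38 delta), an isoform known in epithelia, had 2583 and 2117 counts, or 43.6 and 42.9 CPM, and a log2 ratio of -0.023 (interval -0.11 to 0.060). MAPK11 (p38 beta) had the lowest level of the family per kilobase, with 104 and 80 counts, and its log2 ratio of -0.11 had a wide interval of -0.55 to 0.32. MAPK12 (p38 gamma) had 1254 and 1044 counts, or 21.2 CPM in both libraries. Its interval of -0.12 to 0.12 lay around no change. The annotation lets MAPK12 overlap HDAC10 on the same strand, so reads of that locus may be shared or left out.

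MAPK13 and MAPK14 are neighbours on chromosome 6, 16.6 kb apart, and MAPK11 and MAPK12 on chromosome 22, 1997 bases apart. The log2 ratio of MAPK13 exceeded that of its neighbour MAPK14 by 0.40 (exact interval of the odds ratio on the log2 scale 0.30 to 0.51). The neighbours MAPK11 and MAPK12 differed by -0.11 (interval -0.57 to 0.34), an interval that reaches no change. Between the loci, the log2 ratio of MAPK12 exceeded that of MAPK14 by 0.43 (interval 0.29 to 0.56). Per kilobase of merged exons MAPK14 made up 61.2% of the p38 kinases in LKO (interval 60.2% to 62.2%) and 54.4% in shKDM4C (interval 53.2% to 55.6%). The share of MAPK13 was 26.4% in LKO and 31.0% in shKDM4C. MAPK14 had the largest share in both libraries, also by the length of the canonical transcript, which gave 54.1% and 47.0%. The place of MAPK12 depended on the length used, since its share in LKO was 9.66% by merged exons and 28.0% by the canonical transcript.

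**Figure D3:**
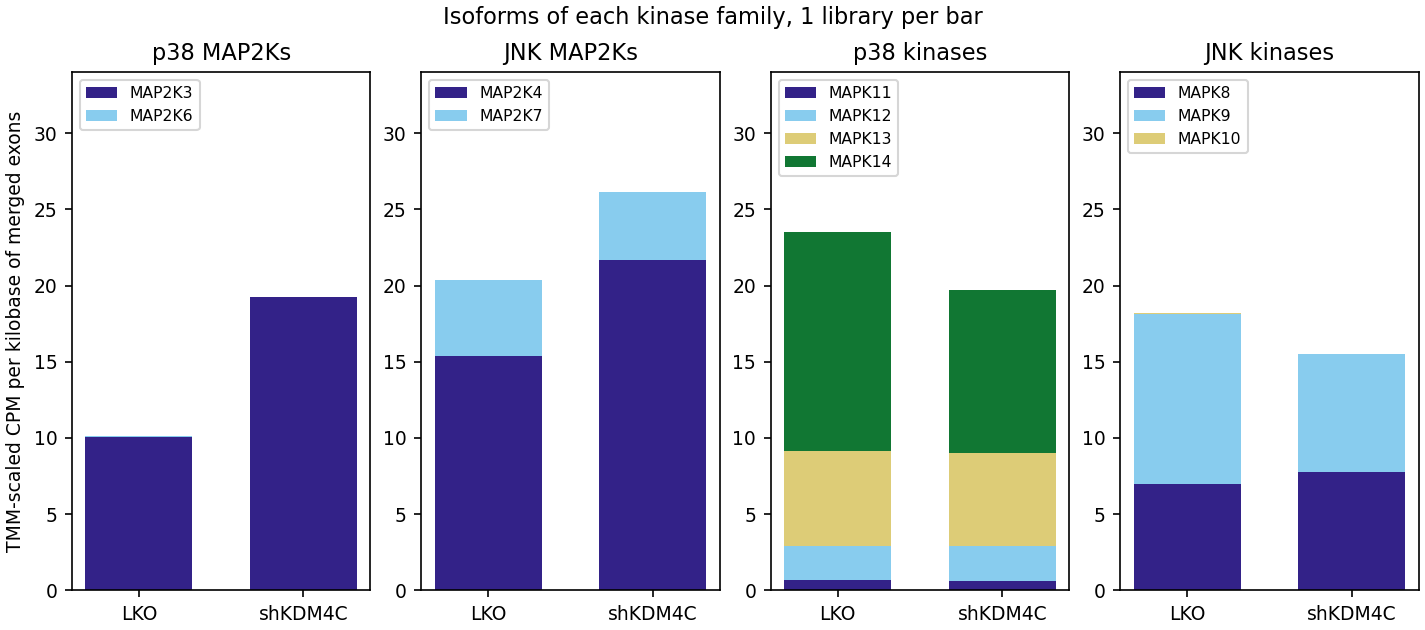
Stacked level of the isoforms of each kinase family in TMM-scaled CPM per kilobase of merged exons, with 1 bar per library. The p38 MAP2Ks reach 10.1 in LKO and 19.2 in shKDM4C and the p38 kinases 23.5 and 19.7, while the slices of MAP2K6 and MAPK10 are too thin to see.

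The JNK kinases MAPK8 (JNK1) and MAPK9 (JNK2), both broadly expressed, had ratios on different sides of 0. MAPK8 had 3990 counts in LKO and 3694 in shKDM4C, or 67.4 and 74.9 CPM, with log2 ratio 0.15 (interval 0.088 to 0.22). MAPK9 had 5916 and 3422 counts, or 100.0 and 69.4 CPM, and a log2 ratio of -0.53 (interval -0.59 to -0.46). The MAPK9 value lies just inside the 1.5-fold limit, and with total counts in place of TMM it was called lower at -0.60. MAPK10 (JNK3), best known from neurons, had 109 and 64 counts and a log2 ratio of -0.50 (interval -0.97 to -0.046). It overlaps the coding genes ARHGAP24 and PTPN13 on the opposite strand. As the strand setting is not given, the origin of its few reads is uncertain.

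The log2 ratio of MAPK8 exceeded that of MAPK9 by 0.68 (exact interval 0.59 to 0.77). In LKO, MAPK9 led with 61.4% of the JNK kinases per kilobase (interval 60.5% to 62.4%) and MAPK8 had 38.3% (interval 37.4% to 39.3%). In shKDM4C both stood at 49.9%, with intervals that overlap. By canonical transcript length MAPK9 still led in shKDM4C, with 52.6% against 46.9%, so that only the narrowing of the gap held under both lengths.

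In each tier the summed counts of a family were also compared. The p38 MAP2Ks together were 1.86-fold higher in shKDM4C (interval 1.77 to 1.96) and the JNK MAP2Ks 1.29-fold higher (interval 1.25 to 1.34). The p38 kinases were at 0.843 of the LKO level (interval 0.817 to 0.870) and the JNK kinases at 0.861 (interval 0.835 to 0.887). Of these 4 sums only that of the p38 MAP2Ks passed 1.5-fold, and of the genes in them only MAP2K3 and MAP2K6 were called. Within the sums of both MAP2K families and of the JNK kinases the genes lay on both sides of 0. There MAP2K6 and MAP2K7 were below it and MAPK8 above it. The p38 kinases all had log2 ratios below 0, from -0.43 for MAPK14 to -0.00037 for MAPK12, the latter close to no change. Of these only MAPK14 had an interval wholly below 0, and those of MAPK11, MAPK12 and MAPK13 reached no change. These intervals cover counting error only.

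By level per kilobase of merged exons in LKO, the order of the 12 genes began with MAP2K4 at 15.4 CPM per kilobase, MAPK14 at 14.4, MAPK9 at 11.2 and MAP2K3 at 10.0. It ended with MAPK11, MAP2K6 and MAPK10 at 0.654, 0.071 and 0.0432. In shKDM4C MAP2K3 stood in place 2 with 19.2, behind MAP2K4 with 21.7, and MAPK14 and MAPK9 followed with 10.7 and 7.75. MAPK9 and MAPK8 were level there at 7.75 each. MAP2K4 was first and MAP2K3 moved from place 4 to place 2 by the canonical transcript length as well. With 1 library per condition, the spread between cultures that would order close neighbours was not measured.

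The pathway around the cascade was described by 90 other genes in 11 lists, 85 of which were tested. Of these, 11 were called lower and 9 higher, against the 15.7% and 13.0% of all genes, with a median log2 ratio of 0.021. By list, 5 of the 20 stress MAP3Ks and TAK1 adaptors were lower and 15 were not called. The MAP4Ks and the transcription factor substrates had calls in both directions.

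**Figure D4:**
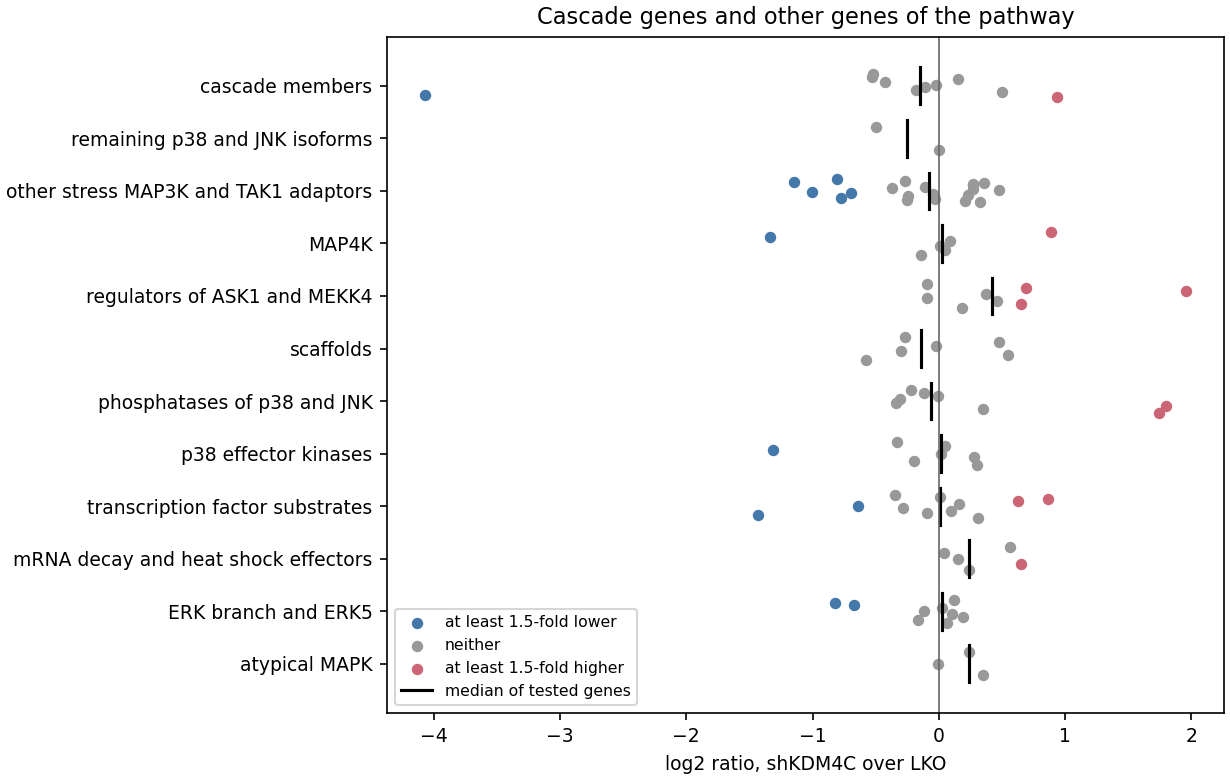
The log2 ratio of shKDM4C over LKO for every tested gene of the cascade and of 11 other lists of the pathway, with 1 point per gene, coloured by its call, and a bar at the median of each list. GADD45A, DUSP4 and DUSP1 lie farthest to the right, between 1.75 and 1.96, and MAP2K6 farthest to the left at -4.07.

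Upstream of the MAP2Ks, TAB1, which activates the kinase TAK1 and can bind p38 alpha, had 1744 counts in LKO and 656 in shKDM4C, a log2 ratio of -1.15 (interval -1.28 to -1.02). MAP3K11 (MLK3), which activates the JNK branch, had 1347 and 558 counts, a log2 ratio of -1.01 (interval -1.15 to -0.86). TAB3, MAP3K6 and MAP3K10 were the other lower genes of this list. MAP3K7 (TAK1) itself had -0.24 (interval -0.31 to -0.18). Of 6 MAP4Ks tested, which act above the MAP3Ks, MINK1 was lower at -1.34 (interval -1.42 to -1.26) and TNIK higher at 0.89 (interval 0.78 to 1.00). The shares of all genes called were 15.7% lower and 13.0% higher.

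Of 8 tested regulators of ASK1 and MEKK4, 3 were higher and 0 lower, with a median of 0.42. Over all genes 13.0% were called higher and 15.7% lower, and nothing is read from list counts this small. GADD45A, a stress-induced protein that binds MEKK4, had 1986 counts in LKO and 6418 in shKDM4C, which is 3.88-fold (log2 ratio 1.96, interval 1.88 to 2.03). Its relative GADD45B had 2073 and 2786 counts, a log2 ratio of 0.69 (interval 0.61 to 0.77). TXNIP, which binds the ASK1 inhibitor thioredoxin, was the third, and 2 of the list were called higher with total counts. Of 8 tested phosphatases of p38 and JNK, 2 were higher and 0 lower, beside the same shares of all genes. DUSP1, which dephosphorylates p38 and JNK, had 2601 and 7273 counts, a log2 ratio of 1.75 (interval 1.68 to 1.81). DUSP4, a nuclear phosphatase that also acts on ERK, had 2790 and 8105 counts, a log2 ratio of 1.80 (interval 1.74 to 1.87). DUSP10 and DUSP16 had -0.34 and -0.31, so the list did not share one direction.

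None of the 6 scaffold genes was called, although 1 was lower with total counts or with a minimum of 1 count. Among the effector kinases of p38, RPS6KA5 (MSK1), which phosphorylates histone H3 and CREB, was lower with 611 counts against 1822 in LKO, a log2 ratio of -1.31 (interval -1.45 to -1.18). The other 6 were neither, among them MAPKAPK2, which acts on proteins of mRNA decay, at 0.31 (interval 0.25 to 0.36). Of 11 tested transcription factor substrates, JUND at -1.43 (interval -1.70 to -1.18) and ELK4 at -0.64 (interval -0.70 to -0.58) were lower. DDIT3 (CHOP) at 0.87 (interval 0.70 to 1.03) and MEF2D at 0.63 (interval 0.52 to 0.74) were higher. Over all genes 15.7% were called lower and 13.0% higher, and nothing is read from the counts of these lists. JUN, the defining target of JNK, had 1990 and 2060 counts and a log2 ratio of 0.31 (interval 0.22 to 0.40).

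Of 5 genes of mRNA decay and the heat shock response, ZFP36L1, an RNA-binding protein that promotes decay of AU-rich transcripts, was called higher with 8216 counts against 6269 (log2 ratio 0.65, interval 0.61 to 0.70), a call lost with total counts. Against 15.7% of all genes called lower and 13.0% called higher, 2 of 9 genes in the parallel ERK branch were lower and 0 higher. These were MAP2K5, the activator of ERK5, at -0.82 (interval -1.04 to -0.61) and MAPK3 (ERK1) at -0.67 (interval -0.83 to -0.52). None of the 3 tested atypical MAPKs was called.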

How the data were processed

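RNA from 2 SAS libraries was analysed, 1 LKO and 1 shKDM4C. The authors trimmed paired-end reads with Trimmomatic, aligned them to GRCh38 with HISAT2 and deposited whole-number counts per gene from featureCounts. For versions, annotation and strand setting the sources used here give nothing, so overlapping and antisense genes are less certain. The deposited tables of the authors' own comparison (CPM, fold changes, p-values) were not used.

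GENCODE v44 gave symbols for 58472 of 58884 gene IDs, and lengths. Scaling used TMM (edgeR 4.0.16, R 4.3.3) over genes with at least 20 counts, and ratios a prior count of 0.5. CPM and percentages of LKO levels are plain scaled counts. Intervals are exact (Clopper-Pearson, or conditional for odds ratios) and cover counting error only. Copies made by PCR are not independent molecules. Family shares hold the mix of the other isoforms fixed. No p-value was computed. Alternatives were size factors of DESeq2 1.42.0, total counts, other priors, filters, intervals, folds and lengths. Calculations used Python 3.11.15 with scipy 1.17.1, pandas 2.3.3 and numpy 2.4.6.

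The members and lists were chosen with earlier results of these data known. Named are all members, MAPK12, MAPK10 and KDM4C, and per list up to 2 called genes in each direction with a mean of at least 100 counts. Where more qualified, the genes taken were those whose interval bound nearest to 0 lay farthest from it. The markers, neighbours, overlapping genes, uncalled genes and remaining called genes named beside them were chosen after their values were seen.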

Additional observations from a re-analysis of the deposited data

How the results depend on the processing

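The number of cascade genes called lower was 1 and became 3 with total counts, where MAPK9 and MAP3K5 joined MAP2K6. It became 0 with a minimum of 200 counts, which removes MAP2K6 and the uncalled MAPK11. The number called higher was 1 and became 0 with a fold of at least 2. These counts did not move under the other alternatives (DESeq2 size factors, a prior count of 5, a minimum of 1 count, a 99% interval, or the 1.5-fold limit alone). The median log2 ratio of the cascade was between -0.084 (at least 200 counts, without MAP2K6 and MAPK11) and -0.225 (total counts). MAPK12 turned from -0.00037 to 0.011 with DESeq2 size factors and to 0.00067 with a prior count of 5. Total counts shifted the median of all genes from -0.0094 to -0.0865. The ratios of the cascade genes and of the pathway genes named by the rule were also recomputed with DESeq2 size factors, total counts and a prior count of 5, and no other sign changed under these 3. Over all genes 2840 were called lower and 2358 higher, 3347 and 2036 with total counts, 1664 and 1053 with a minimum of 200 counts, and 1348 and 1404 with a fold of at least 2. In the transcription factor list the genes called higher fell from 2 to 1 with total counts. Lengths of canonical transcripts were chosen after seeing the data. No paired analysis was possible because each condition has 1 library, and the depth limits MAP2K6, MAPK11 and MAPK10 most.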
